A study of Mus musculus with 6 samples.

Results

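The genes described are 37 named genes of the type I interferon response, taken from a list of symbols that was drawn up with earlier results of these data known; no threshold on a value chose them. A gene was measured where a feature of the array was annotated with its symbol alone, and the brightest such feature stood for it. By that rule 35 of the 37 genes had a value, each from 1 feature, among 19818 genes and 21542 features annotated with exactly 1 symbol. Isg15, which encodes a ubiquitin-like modifier, lay on a feature shared with another symbol, and Ifi44 had no feature annotated with its symbol.

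Mouse B cells were studied on 6 Affymetrix mouse ST 1.0 arrays, 1 per sample, in 3 groups of 2. All samples were mature B cells from the spleen that had been activated, infected with a retrovirus carrying a green fluorescent marker, kept with mitogen for 36 h and without it for 24 h, and sorted for the marker before RNA extraction. The EV group received the empty vector, the IKK_K171E group IKK with the substitution K171E, and the MYD88_L265P group MYD88 with the substitution L265P. IKK is a kinase of the NF-kB pathway and MYD88 the adaptor of most Toll-like receptors; each mutant was delivered by the retrovirus, on top of the B cells' own genes. Strain, age, and the amount of each introduced protein are not given in the sources used here. The deposited values are log2 signals between 2.55 and 14.5 with array medians of 8.03 to 8.13, so a difference of 1 is a doubling. They carry no detection calls, so probe brightness limits what can be said of a level. Correlations over all features were at least 0.989 between replicates and at least 0.967 between any pair of arrays. The labels call replicates biological without saying whether they came from separate mice or cultures, so the tests measure the spread between such samples, which may be partly technical. In bulk RNA, fewer cells that express a gene and less RNA per cell cannot be told apart.

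Type I interferons bind the receptor made of Ifnar1 and Ifnar2, whose kinases Jak1 and Tyk2 phosphorylate Stat2. Stat2 and Irf9 are part of the complex ISGF3, which binds the interferon-stimulated response element (ISRE) of its target genes. The targets make sensors of foreign nucleic acid, enzymes and binding proteins that block viral RNA and protein synthesis, and regulators such as Usp18 that damp the signal. In B cells, Toll-like receptors signal through MYD88 to NF-kB and to interferon regulatory factors, of which Irf7 is itself induced by interferon.

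The shared regulatory sequence of these genes was read from RefSeq promoters of the mouse build GRCm38.p6. Each window holds 250 bases before and 50 bases after a gene's start, 300 bases in all, and 28 of the 37 genes matched one. The ISRE core searched was GAAANNGAAA, on both strands. It occurred in 13 of the 28 genes (46.4%), against 3.99% of 27025 genes with a window and 3.44% of 32851 windows. The core of the interferon-gamma element, TTCNNNGAA, which reads alike on both strands, occurred in 6 of the 28 genes (21.4%), against 9.55% of genes and 8.3% of windows. The genes with an ISRE core were Bst2, Ddx60, Eif2ak2, Ifih1, Ifit1, Ifit3, Irgm1, Isg15, Oas1a, Oas3, Rsad2, Stat2 and Trim30a. Counted over all windows of a gene, over 1 match was found for 8 of them, and 14 matches lay on the strand of the gene and 8 on the opposite strand. The matches of Trim30a lay in different windows, and whether they are the same site was not checked. The genes with a window and no match were Cmpk2, Dtx3l, Herc6, Ifi35, Ifi44, Ifit2, Irf7, Irf9, Isg20, Oasl1, Oasl2, Parp12, Samd9l, Trim25 and Xaf1. No window was found for Dhx58, Zbp1, Oas2, Mx1, Mx2, Usp18, Parp9, Parp14 and Rtp4.

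The stretches below show the core in Isg15 and Ifit1, classical targets; in Stat2 and Irgm1, which passed the test described below; and in Ifit3, shown because it had the largest fitted difference, a choice made after its values were seen. Each is written 5′ to 3′ on the strand of the gene, and capitals mark ISRE core matches, which appear as the reverse complement where the match is on the opposite strand.
Isg15, chr4:156200860-156200911, minus strand: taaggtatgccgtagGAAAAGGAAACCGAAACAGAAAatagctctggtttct
Ifit1, chr19:34640770-34640828, plus strand: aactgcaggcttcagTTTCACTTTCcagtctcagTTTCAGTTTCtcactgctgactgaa
Ifit3, chr19:34583358-34583431, plus strand: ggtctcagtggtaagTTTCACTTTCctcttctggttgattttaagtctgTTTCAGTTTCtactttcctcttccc
Irgm1, chr11:48871420-48871465, minus strand: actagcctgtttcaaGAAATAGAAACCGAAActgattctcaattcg
Stat2, chr10:128270261-128270300, plus strand: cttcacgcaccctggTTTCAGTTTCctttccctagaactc

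In Isg15, 3 matches overlap into 1 run that begins 78 bases before the start. Irgm1 has 2 overlapping matches that begin 30 and 24 bases before the start. The matches of Ifit1 begin 104 and 85 bases before the start, and those of Ifit3 begin 156 and 122 bases before it. The single match in Stat2 lies farther out, 222 bases before the start. A match shows only that these letters are present in the window.

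**Figure D1:**
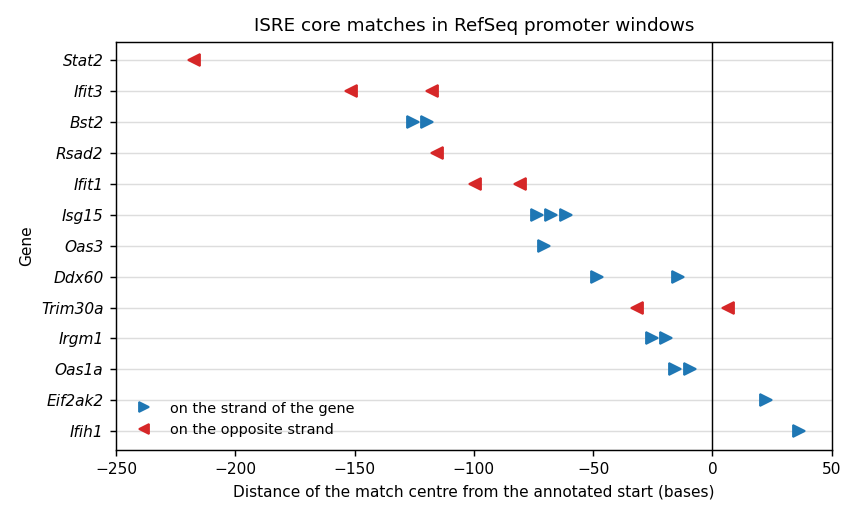
Distance of each ISRE core match from the gene's start, in bases (negative before the start), for the 13 genes with a match. The 3 matches of Isg15 lie close together, and the match of Stat2 lies farthest from its start.

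Before the groups are compared, the samples need describing one by one, because the interferon genes differed between arrays of the same group. The array of replicate 1 was brighter than that of replicate 2 for 29 of the 35 genes in EV (48.5% of all features), 33 in IKK_K171E (47.6% of all features) and 34 in MYD88_L265P (50.9% of all features). In all 3 groups at once this held for 27 of the 35 genes, 77.1%, against 14.1% of all features. The median gap between the arrays was 0.24 in EV, 0.31 in IKK_K171E and 0.42 in MYD88_L265P, while over all features it was -0.01, -0.01 and 0.00. The replicate numbers are those of the sample descriptions, and no label says that a shared number marks a shared preparation. The titles give replicate 2 the same number in all 3 groups, and replicate 1 the same number in the mutant groups but another in EV.

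The brightest and dimmest arrays belonged to different groups. Relative to each gene's own mean over the 6 arrays, the median of the 35 genes stood at 0.30 in IKK_K171E replicate 1 and at -0.39 in MYD88_L265P replicate 2. In EV it stood at 0.11 and -0.07, in IKK_K171E replicate 2 at -0.00 and in MYD88_L265P replicate 1 at 0.04. IKK_K171E replicate 1 was the highest of the 6 arrays for 22 of the 35 genes, against 11.2% of all features. MYD88_L265P replicate 2 was the lowest for 26 of them, against 27.3% of all features. The exceptions were Ifih1, Dhx58, Eif2ak2, Oasl1, Isg20, Cmpk2, Bst2, Trim25 and Samd9l.

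**Figure D2:**
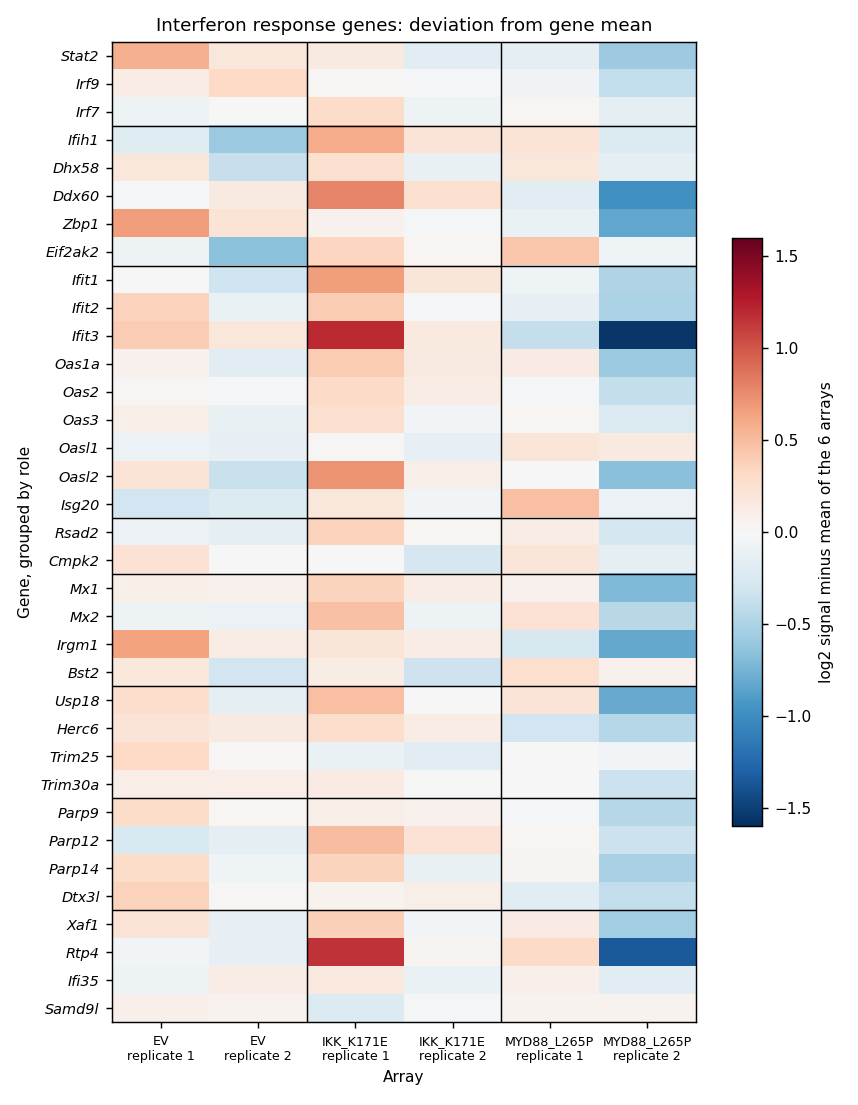
Heat map of the 35 measured genes by array; colour is the log2 signal minus the gene's mean over the 6 arrays, with genes grouped by role. The column of IKK_K171E replicate 1 is the brightest, with a median of 0.30, and that of MYD88_L265P replicate 2 the dimmest, with a median of -0.39.

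The gap was widest for a few inducible genes. Rtp4, which encodes a receptor transporter protein induced by interferon, was 3.12-fold brighter in replicate 1 than in replicate 2 of MYD88_L265P and 2.16-fold in IKK_K171E. Ifit3, of the Ifit family of RNA-binding proteins, was 2.27-fold brighter in replicate 1 of MYD88_L265P and 2.06-fold in IKK_K171E. Usp18, which removes Isg15 from proteins and restrains receptor signalling, was 2.01-fold brighter in replicate 1 of MYD88_L265P. A gap over 0.5 in either direction was found for 14 of the 35 genes in MYD88_L265P (40%, against 1.25% of all features), 5 in IKK_K171E (14.3% against 3.2%) and 4 in EV (11.4% against 4.1%).

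**Figure D3:**
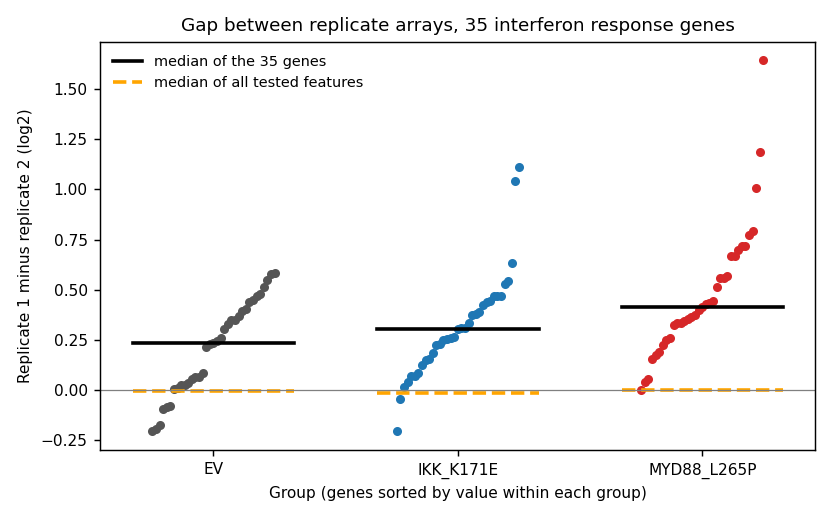
Log2 signal of replicate 1 minus replicate 2 for each of the 35 genes, by group, with solid lines at the median of the 35 genes and dashed lines at that of all features. Most points lie above 0 in every group, and Rtp4 (1.64) and Ifit3 (1.19) stand highest in MYD88_L265P.

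Genes of the list also moved together over the 6 arrays. The correlation of each gene with the mean of the other 34 had a median of 0.76, and 28 of the 35 (80%) were over 0.5. For all features the median correlation with the mean of the 35 genes was 0.10, and 17.5% were over 0.5. Xaf1, a pro-apoptotic interferon target, had the highest value at 0.99, followed by Usp18 at 0.98. Samd9l, which encodes an antiviral restriction factor, had -0.61, and Oasl1, of the oligoadenylate synthetase family, -0.30. These correlations rest on 6 arrays of 3 groups and describe these samples. Several genes are neighbours on a chromosome in RefSeq: Rsad2 and Cmpk2; Parp14, Dtx3l and Parp9; Ifit2 and Ifit3; Oasl2 and Oasl1; and Oas2 and Oas3.

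Group differences were fitted with limma on all features, and a gene was called where its p, adjusted over all features by Benjamini-Hochberg, was below 0.05. In MYD88_L265P against EV, 4 of the 35 genes were lower and 0 higher: Stat2, Zbp1, Irgm1 and Herc6. Among all features 7.33% were called lower and 9.32% higher, so 4 of 35 (11.4%) is a share close to the background. At an unadjusted p below 0.05, 9 of the 35 were lower (25.7%, against 22.9% of all features) and 2 were higher (15.8% of all features), Oasl1 and Isg20. With each array set to a common median, the calls were 1 higher, Oasl1, and 2 lower, Irgm1 and Herc6, and 3337 over all features. The median difference of the 35 genes was -0.20, and that of all features -0.11. Both MYD88_L265P arrays lay below both EV arrays for 13 genes and above both for 3, where all features gave 47.9% below and 23.2% above.

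In IKK_K171E against EV, 0 of the 35 genes were called in either direction by limma, where 0.956% of all features were higher and 0.413% lower. At an unadjusted p below 0.05, 4 were higher (8.9% of all features), Ifih1, Eif2ak2, Ifit1 and Parp12, and 1 was lower (8.16% of all features), Trim25. The median difference was 0.13, against -0.04 for all features. Both IKK_K171E arrays lay above both EV arrays for 12 genes and below both for 5, where all features gave 17.6% above and 28.4% below. This and the preceding comparison share the EV arrays.

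In MYD88_L265P against IKK_K171E, which shares its arrays with both comparisons above, 1 of the 35 genes was lower, Herc6, and 0 were higher by limma; 0.877% of all features were lower and 0.873% higher. With a common median 0 were called, and 388 over all features. At an unadjusted p below 0.05, 11 of the 35 were lower (31.4%, against 11.2% of all features) and 1 was higher (8.35% of all features), Oasl1. The median difference was -0.35, against -0.05 for all features. Both MYD88_L265P arrays lay below both IKK_K171E arrays for 15 genes and above both for 3, where all features gave 36.1% below and 20.9% above.

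The medians of the list turned on single arrays. Without MYD88_L265P replicate 2 the median difference from EV was 0.06, and no gene of the list was called. Without IKK_K171E replicate 1 the median difference of IKK_K171E from EV was -0.05. The median of MYD88_L265P against IKK_K171E was -0.08 without MYD88_L265P replicate 2 and -0.20 without IKK_K171E replicate 1, with no call in either case.

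**Figure D4:**
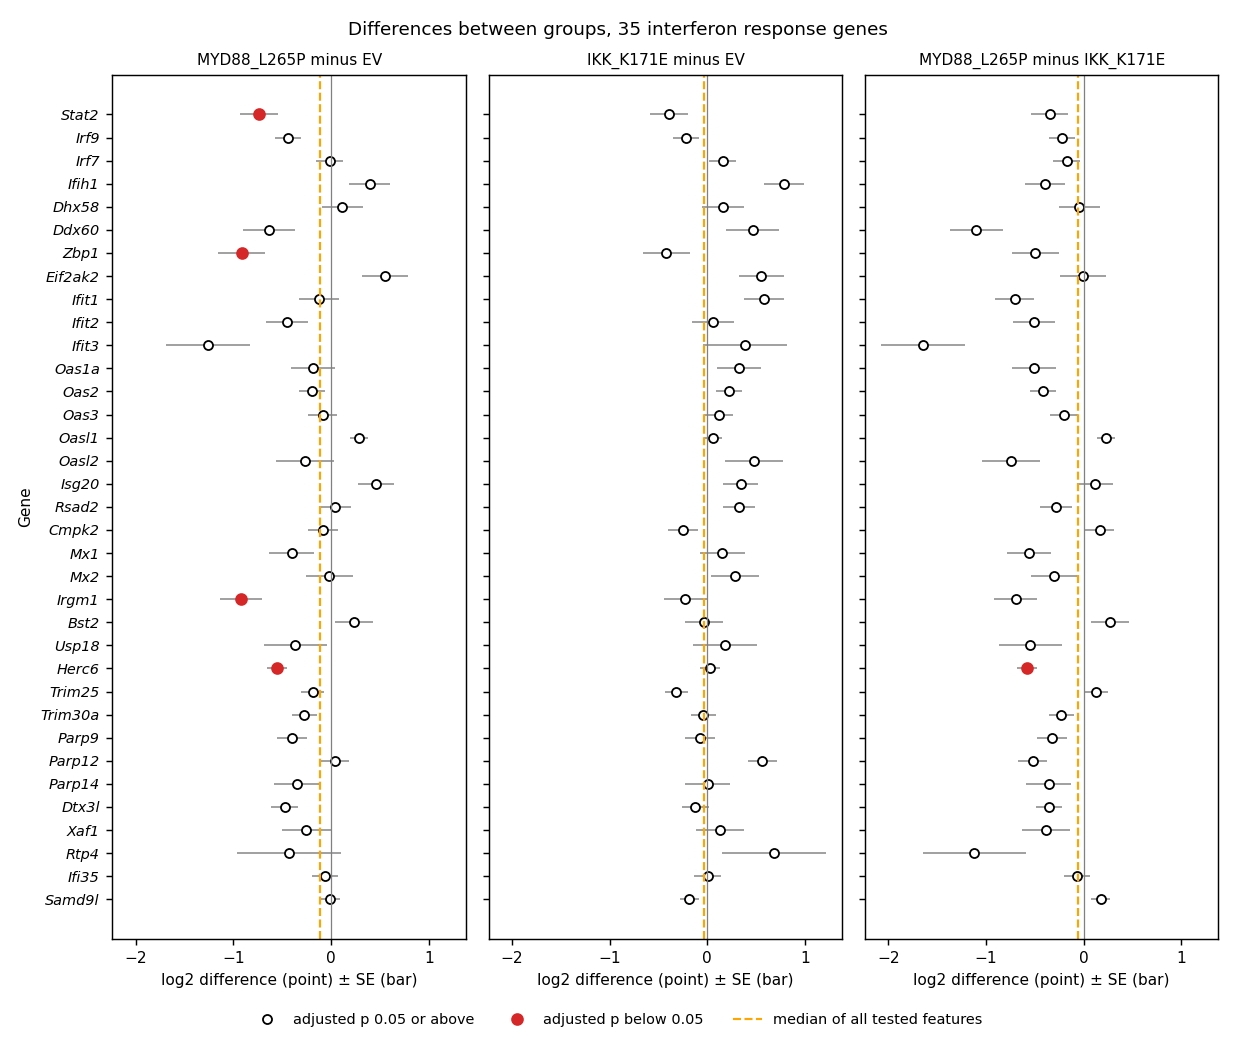
Fitted log2 differences of the 35 genes in the 3 comparisons, with bars of 1 standard error and filled points for genes called at an adjusted p below 0.05; the dashed line is the median of all features. Stat2, Zbp1, Irgm1 and Herc6 are called lower in MYD88_L265P against EV, Herc6 is called lower against IKK_K171E, and none is called in IKK_K171E against EV.

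Stat2, a subunit of ISGF3, read 10.53 and 10.13 in EV, 10.09 and 9.78 in IKK_K171E, and 9.81 and 9.37 in MYD88_L265P. Both MYD88_L265P arrays were under both EV arrays, and the IKK_K171E arrays lay between, overlapping with MYD88_L265P. It fell by 0.74 in MYD88_L265P against EV (SE 0.19, adjusted p = 0.0429), which is 1.67-fold lower. The differences of -0.39 in IKK_K171E against EV (adjusted p = 0.364) and -0.35 in MYD88_L265P against IKK_K171E (0.346) did not pass. Over the alternatives tried, the adjusted p of the first difference ran from 0.00519 to 0.204; it was 0.121 without EV replicate 1, 0.0543 without either IKK_K171E array, 0.0757 without MYD88_L265P replicate 1 and 0.204 without replicate 2.

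Irf9, the DNA-binding subunit of ISGF3, read 10.13 and 10.33 in EV, 10.03 and 9.99 in IKK_K171E, and 9.96 and 9.62 in MYD88_L265P. Each MYD88_L265P array was below every array of the other groups, and the difference from EV of -0.44 (SE 0.13) had an adjusted p of 0.061. Irf7, the factor that amplifies interferon production, read 7.70 and 7.78 in EV, 8.09 and 7.71 in IKK_K171E, and 7.81 and 7.64 in MYD88_L265P. Its groups overlapped, with differences from EV of -0.02 in MYD88_L265P (adjusted p = 0.937) and 0.16 in IKK_K171E (0.624). By likeness of pattern over the 6 arrays, Has1, Tll1 and Naif1 came nearest to Stat2 (r at least 0.99), Slc39a2, Zfp628 and Thap3 to Irf9, and Bola2, Prdm15 and Rpusd4 to Irf7; none belongs to the list.

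Among the sensors of nucleic acid, Zbp1, which binds left-handed double helices and can trigger cell death, read 11.18 and 10.73 in EV, 10.58 and 10.50 in IKK_K171E, and 10.40 and 9.69 in MYD88_L265P. The 3 groups did not overlap, with EV highest and MYD88_L265P lowest. Zbp1 fell by 0.91 in MYD88_L265P against EV (SE 0.24, adjusted p = 0.0431), which is 1.88-fold lower. The difference of IKK_K171E from EV was -0.42 (adjusted p = 0.431). Its adjusted p against EV ran from 0.0106 to 0.171 over the alternatives, with 0.121 without EV replicate 1, 0.0540 without EV replicate 2, 0.0677 without either IKK_K171E array and 0.171 without MYD88_L265P replicate 2.

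Ifih1, the gene of the long double-stranded RNA sensor MDA5, read 9.42 and 9.02 in EV, 10.20 and 9.81 in IKK_K171E, and 9.84 and 9.39 in MYD88_L265P. Both IKK_K171E arrays were above both EV arrays. The difference of 0.79 (SE 0.21) was the largest increase of the list in that comparison and did not pass (adjusted p = 0.115). In MYD88_L265P the difference from EV was 0.39 (adjusted p = 0.194). Eif2ak2, the gene of the kinase PKR that stops translation on double-stranded RNA, read 10.34 and 9.76 in EV, 10.75 and 10.45 in IKK_K171E, and 10.85 and 10.34 in MYD88_L265P. Its differences from EV were 0.55 in both mutant groups (adjusted p = 0.129 in MYD88_L265P and 0.291 in IKK_K171E).

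Ddx60, a helicase gene linked to RNA sensing, read 8.79 and 8.96 in EV, 9.61 and 9.07 in IKK_K171E, and 8.64 and 7.84 in MYD88_L265P. IKK_K171E lay above EV and MYD88_L265P below it, without overlap. The difference between the mutant groups was -1.10 (SE 0.27, adjusted p = 0.106). Dhx58, the gene of the sensor LGP2, had differences from EV of 0.12 in MYD88_L265P and 0.16 in IKK_K171E.

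The Ifit genes encode proteins that bind foreign RNA ends and block translation. Ifit3 read 9.38 and 9.15 in EV, 10.17 and 9.13 in IKK_K171E, and 8.60 and 7.41 in MYD88_L265P. Both MYD88_L265P arrays were the lowest, 1.19 apart, and the IKK_K171E arrays lay on either side of EV. The difference of -1.26 from EV (SE 0.43, adjusted p = 0.0806) and that of -1.64 from IKK_K171E (SE 0.43, adjusted p = 0.121) were the largest of the list, and neither passed. Ifit1 read 8.16 and 7.83 in EV, 8.81 and 8.34 in IKK_K171E, and 8.08 and 7.66 in MYD88_L265P. It was highest in both IKK_K171E arrays, with differences of 0.58 from EV (SE 0.20, adjusted p = 0.208) and -0.71 between MYD88_L265P and IKK_K171E (SE 0.20, adjusted p = 0.145). Ifit2 differed from EV by -0.45 in MYD88_L265P (adjusted p = 0.162) and by 0.06 in IKK_K171E.

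The oligoadenylate synthetases make the messenger that switches on the RNA-cutting enzyme RNase L, and the Oasl proteins are relatives. Oas1a, Oas2, Oas3 and Oasl2 were each highest in IKK_K171E replicate 1, and none passed. Their differences between MYD88_L265P and IKK_K171E were -0.50, -0.42, -0.20 and -0.75. Oasl1, which restrains translation of Irf7, read 8.74 and 8.70 in EV, 8.85 and 8.70 in IKK_K171E, and 9.03 and 8.98 in MYD88_L265P. Unlike Oasl2, its neighbour, it was highest in both MYD88_L265P arrays, by 0.29 over EV (SE 0.09, adjusted p = 0.0712). Isg20, the gene of an RNA exonuclease, read 9.14 and 9.22 in EV, 9.63 and 9.41 in IKK_K171E, and 9.92 and 9.35 in MYD88_L265P. All mutant arrays were above both EV arrays, and the difference in MYD88_L265P was 0.46 (SE 0.18, adjusted p = 0.113).

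Rsad2, the gene of viperin, which makes a chain-terminating nucleotide, and its neighbour Cmpk2, a nucleotide kinase gene, showed small differences. They were 0.04 and -0.08 in MYD88_L265P against EV, and 0.32 and -0.25 in IKK_K171E against EV.

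Irgm1, an immunity-related GTPase gene that controls membranes around intracellular microbes, read 11.18 and 10.66 in EV, 10.73 and 10.66 in IKK_K171E, and 10.28 and 9.72 in MYD88_L265P. Both MYD88_L265P arrays were below all others, while EV and IKK_K171E overlapped. It fell by 0.92 against EV (SE 0.22, adjusted p = 0.0326), which is 1.89-fold lower. The differences of -0.23 in IKK_K171E against EV (adjusted p = 0.655) and -0.70 between the mutants (0.166) did not pass. The adjusted p against EV ran from 0.00771 to 0.158 over the alternatives, with 0.0863 without EV replicate 1, 0.0549 without either IKK_K171E array, 0.0545 without MYD88_L265P replicate 1 and 0.158 without replicate 2.

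The Mx genes encode dynamin-like GTPases; in the RefSeq reference both are listed as transcribed pseudogenes. Mx1 differed from EV by -0.40 in MYD88_L265P and 0.15 in IKK_K171E, and Mx2 by -0.02 and 0.28. Bst2, the gene of tetherin, which holds budding virus at the cell surface, read 9.10 and 8.63 in EV, 9.05 and 8.61 in IKK_K171E, and 9.20 and 9.00 in MYD88_L265P. The MYD88_L265P arrays overlapped with EV, and the difference was 0.24 (adjusted p = 0.387).

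Herc6 was the one gene of the list called in more than 1 comparison. It encodes the mouse ligase that attaches Isg15 to proteins, and read 10.61 and 10.55 in EV, 10.69 and 10.53 in IKK_K171E, and 10.10 and 9.95 in MYD88_L265P. EV and IKK_K171E overlapped, and both MYD88_L265P arrays were lower. Herc6 fell by 0.56 against EV (SE 0.10, adjusted p = 0.0164), which is 1.47-fold lower, and by 0.58 against IKK_K171E (SE 0.10, adjusted p = 0.0429), which is 1.5-fold lower. Between IKK_K171E and EV the difference was 0.03 (adjusted p = 0.928). Over the alternatives the adjusted p against EV ran from 0.00684 to 0.117, and it missed the threshold only without MYD88_L265P replicate 1 (0.0687) or replicate 2 (0.117). Against IKK_K171E it ran from 0.0229 to 0.332, and was 0.103 and 0.146 without IKK_K171E replicate 1 or 2, and 0.130 and 0.332 without MYD88_L265P replicate 1 or 2.

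Usp18, which opposes Herc6 by removing Isg15, read 9.00 and 8.57 in EV, 9.20 and 8.73 in IKK_K171E, and 8.92 and 7.92 in MYD88_L265P. Its groups overlapped, and the difference of MYD88_L265P from EV was -0.37 (adjusted p = 0.418). Trim25, a ubiquitin ligase gene of the RIG-I pathway, read 10.82 and 10.51 in EV, 10.39 and 10.31 in IKK_K171E, and 10.50 and 10.46 in MYD88_L265P. Both mutant groups lay below EV, with a difference of -0.32 in IKK_K171E (adjusted p = 0.229). Trim30a, of the same protein family, differed from EV by -0.27 in MYD88_L265P and -0.04 in IKK_K171E.

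The ADP-ribosylation genes include Parp9 and its partner Dtx3l, which act together on histones and viral proteins. Dtx3l differed from EV by -0.48 in MYD88_L265P (SE 0.14, adjusted p = 0.0553) and Parp9 by -0.40 (adjusted p = 0.109). Parp14, from the same chromosomal neighbourhood, differed by -0.35. Parp12, which acts on RNA granules, had a difference of 0.56 in IKK_K171E against EV (SE 0.15, adjusted p = 0.115).

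Rtp4 read 8.72 and 8.63 in EV, 9.92 and 8.80 in IKK_K171E, and 9.06 and 7.42 in MYD88_L265P. Both IKK_K171E arrays lay above EV, 1.11 apart, and the MYD88_L265P arrays lay on either side of EV, 1.64 apart. Its differences from EV, 0.69 in IKK_K171E (adjusted p = 0.567) and -0.43 in MYD88_L265P (0.552), had the widest standard error of the list, 0.53. Samd9l read 11.54 and 11.51 in EV, 11.24 and 11.44 in IKK_K171E, and 11.51 and 11.52 in MYD88_L265P, with the IKK_K171E arrays lowest. Xaf1 differed from EV by -0.25 in MYD88_L265P and 0.13 in IKK_K171E, and Ifi35, which encodes a leucine zipper protein, by -0.06 and 0.00.

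**Figure D5:**
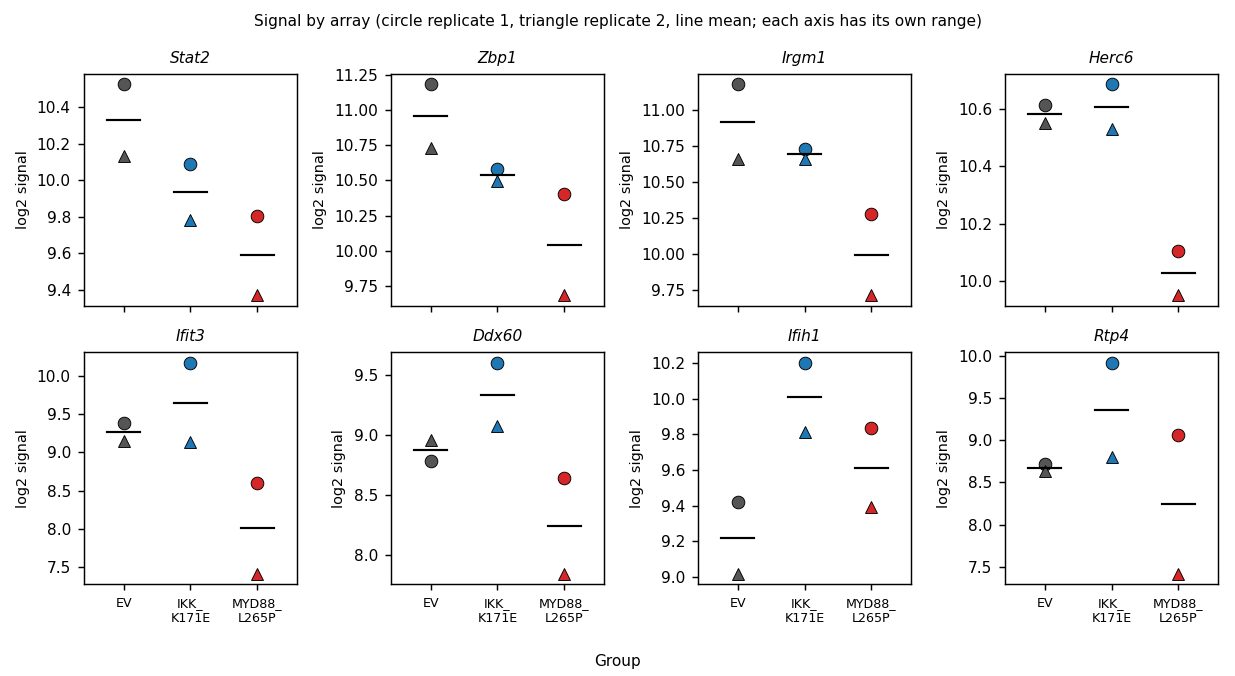
Log2 signal of 8 genes on each of the 6 arrays, with a bar at each group mean. Herc6 lies lower in both MYD88_L265P arrays than in the other 4, while Rtp4 and Ifit3 show replicates of a group more than 1 apart.

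Measured genes with an ISRE core in the window (12) and those with a window but no core (14) were set side by side as a description. Their median differences in MYD88_L265P against EV were -0.15 and -0.14, and in IKK_K171E against EV 0.32 and 0.04. The median gap between replicates was 0.28 and 0.05 in EV, 0.32 and 0.24 in IKK_K171E, and 0.44 and 0.29 in MYD88_L265P. For the 9 measured genes with no window, the median differences from EV were -0.37 in MYD88_L265P and 0.16 in IKK_K171E. Their median gaps were 0.26 in EV, 0.38 in IKK_K171E and 0.67 in MYD88_L265P.

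The upstream pathway was described with a list of 39 genes of interferon production and signalling, 34 of them measured. In MYD88_L265P against EV, 10 were lower (29.4%, against 7.33% of all features) and 0 higher, with a median of -0.29 against -0.11 for all features. At an unadjusted p below 0.05, 18 were lower (52.9%, against 22.9% of all features) and 2 higher. Irf1, an interferon regulatory factor that also activates interferon target genes, read 10.96 and 10.60 in EV, 10.26 and 10.45 in IKK_K171E, and 9.61 and 9.30 in MYD88_L265P. It fell by 1.32 against EV (SE 0.16, adjusted p = 0.00579) and by 0.90 against IKK_K171E (adjusted p = 0.0449). Irf1 has 2 features, of which the brightest is given. With the mean of its features, and with a common median, its call against EV was kept and that against IKK_K171E was lost. Jak2, the kinase of the interferon-gamma receptor, fell by 0.96 against EV (SE 0.09, adjusted p = 0.00396) and by 0.69 against IKK_K171E (adjusted p = 0.0173). Irf2, a factor that competes with Irf1, fell by 0.70 (SE 0.08, adjusted p = 0.00579). The other lower genes were the receptor genes Ifnar1, Ifngr1 and Ifngr2, Irf5, Tlr9, Mavs, and Ptpn6, a phosphatase gene. Of the 10 calls, 7 remained without EV replicate 1, 5 without EV replicate 2, 8 without either IKK_K171E array, 2 without MYD88_L265P replicate 1 and 1 without replicate 2.

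Of the receptor for type I interferon, Ifnar1 read 10.17 and 10.09 in EV, 9.87 and 9.94 in IKK_K171E, and 9.86 and 9.69 in MYD88_L265P, and fell by 0.36 in MYD88_L265P against EV (SE 0.10, adjusted p = 0.0485). Ifnar2 differed by -0.16 (adjusted p = 0.279). Ifnb1, the interferon-beta gene, read 6.51 and 6.73 in EV, 6.29 and 6.76 in IKK_K171E, and 6.47 and 6.39 in MYD88_L265P. Both MYD88_L265P arrays were below both EV arrays, with a difference of -0.19 (adjusted p = 0.404), and the IKK_K171E arrays overlapped with both groups. In IKK_K171E against EV, 1 of the 34 pathway genes was higher (2.94%, against 0.956% of all features) and 2 were lower (5.88%, against 0.413%). The median was -0.13, against -0.04 for all features. At an unadjusted p below 0.05, 3 were higher (8.82%, against 8.9%) and 9 lower (26.5%, against 8.16%). By the adjusted p, Ifnk, an interferon gene, rose by 0.94 (adjusted p = 0.0251), and Irf2 (-0.52, adjusted p = 0.041) and Irf8 (-0.84, adjusted p = 0.0492) were lower. None of these 3 was called without either IKK_K171E array or without either MYD88_L265P array.

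A further list of 53 interferon-induced genes, 42 of them measured, was read in the same way. In IKK_K171E against EV, 3 were higher (7.14%, against 0.956% of all features) and 0 lower, with a median of -0.02 against -0.04 for all features. At an unadjusted p below 0.05, 7 were higher (16.7%, against 8.9% of all features) and 3 lower (7.14%, against 8.16%). Cxcl10, a chemokine gene driven by both interferon and NF-kB, read 7.43 and 7.64 in EV, 9.32 and 8.98 in IKK_K171E, and 7.82 and 7.73 in MYD88_L265P. Both IKK_K171E arrays stood apart from the other 4, with a rise of 1.61 over EV (SE 0.14, adjusted p = 0.0084) and a difference of -1.37 between MYD88_L265P and IKK_K171E (adjusted p = 0.00929). Ifi205, a gene of the HIN-200 family, rose by 2.31 (SE 0.30, adjusted p = 0.0252), and Cxcl9, a second chemokine gene, by 0.64 (adjusted p = 0.0422). None of the 3 was called without IKK_K171E replicate 1, and 2 were called without any other single array.

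In MYD88_L265P against EV, 9 of the 42 were lower (21.4%, against 7.33% of all features) and 2 higher (4.76%, against 9.32%), with a median of -0.20. Trim34a (-0.88, adjusted p = 0.0245), Slfn8 (-0.86, adjusted p = 0.041) and Ifi27 (-0.76, adjusted p = 0.0325) had the largest decreases among the called genes. Tent5c, a poly(A) polymerase gene also tied to plasma cell differentiation, rose by 1.51 (SE 0.10, adjusted p = 0.00192), and Pnpt1, a mitochondrial RNA exonuclease gene, by 0.47 (adjusted p = 0.0394). Of these 11 calls, 2 remained without EV replicate 1, 5 without EV replicate 2, 9 without either IKK_K171E array, 3 without MYD88_L265P replicate 1 and 1 without replicate 2.

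Markers of cell types were read on the same arrays. B cell markers were bright, with 9 of 10 measured and none below 9.81 on any array. Their summed signal on the log2 scale was 15.18 and 15.21 in EV, 14.78 and 14.84 in IKK_K171E, and 14.58 and 14.65 in MYD88_L265P. Of the 9, 6 were lower in MYD88_L265P against EV (66.7%, against 7.33% of all features) and 2 in IKK_K171E against EV (22.2%, against 0.413%). With a common median 4 of the 6 were still called, and with only the arrays compared 5 of the 6 and 0 of the 2. Fewer calls remained in both comparisons when either MYD88_L265P array was left out. Both arrays of each mutant group lay below both EV arrays for all 9 (against 47.9% of all features in MYD88_L265P and 28.4% in IKK_K171E). Monocyte and macrophage markers (13 of 15 measured) summed to 13.87 and 14.11 in EV, 14.50 and 14.34 in IKK_K171E, and 13.82 and 13.67 in MYD88_L265P. In IKK_K171E against EV, 1 of the 13 was higher (7.69%, against 0.956% of all features), Csf1r by 1.22. Also 1 was lower (7.69%, against 0.413%), Adgre1 by a difference of -1.17. By limma without adjustment, p was below 0.05 for 7 higher markers (53.8%, against 8.9%) and 1 lower (7.69%, against 8.16%). The median of the 13 was 0.47, against -0.04 for all features. T and NK cell markers (15 of 15) summed to 11.72 and 11.71 in EV, 11.91 and 11.85 in IKK_K171E, and 11.50 and 11.33 in MYD88_L265P. Of the 15, 5 were lower in MYD88_L265P against EV (33.3%, against 7.33% of all features). Only 2 of these 5 were still called with quantile normalization or a common median, and fewer than 5 when either MYD88_L265P array was left out. Only 9 of the 15 lay above the lowest 25% of signal. The sums of both of these lists were highest in the IKK_K171E arrays and lowest in the MYD88_L265P arrays. The median level of the monocyte and macrophage markers was 7.95 and 8.20 in EV, and 8.12 and 8.15 in MYD88_L265P. Their median difference between these 2 groups was -0.05, against -0.11 for all features, so only the sum was lowest in MYD88_L265P. Replicate 1 was above replicate 2 in all 3 groups for the T and NK cell sum, and in the mutant groups but not in EV for the monocyte and macrophage sum. Between the mutants, both MYD88_L265P arrays lay below both IKK_K171E arrays for 12 of the 13 monocyte and macrophage markers (92.3%). The same held for 13 of the 15 T and NK cell markers (86.7%), against 36.1% of all features. Markers of plasmacytoid dendritic cells, which make large amounts of interferon (8 of 10 measured), summed to between 12.28 and 12.38 on every array. In MYD88_L265P against EV, 2 of the 8 were higher (25%, against 9.32% of all features), Ccr9 and Lair1. The median of the 8 was -0.18, and both MYD88_L265P arrays lay below both EV arrays for 4 (50%, against 47.9%). Lair1 was also higher in IKK_K171E against EV (12.5%, against 0.956% of all features). No marker is at 0 on this scale, the lowest reading being 5.69. The part of these cell types in the interferon results was not tested.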

How the data were processed

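The deposited values are log2 expression signals per feature, made by the authors from single-channel Affymetrix mouse ST 1.0 arrays. Per the submitters' processing notes, oligo and limma were used, with no version stated. The background correction, the normalization method and the genome build are not given in the sources used here. The 6 arrays were grouped by their labels into 3 groups of 2. Values were used as deposited. Of 24743 features, 21542 with exactly 1 symbol in the platform annotation were tested, 1522 with several symbols and 1679 with none were left out.

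Group means were fitted to all 6 arrays with limma 3.58.1 in R 4.3.3 (lmFit, contrasts, eBayes with 3 residual and 4.17 prior degrees of freedom), and p-values were adjusted over all tested features by Benjamini-Hochberg. The script was tested on simulated data. The genes of the list, the further lists and the comparisons were chosen with earlier results of these data known, so lists are described by counts and medians without a test of their own. Values per array are given for genes called in any comparison, the 3 largest fitted increases and decreases per comparison, Stat2, Irf9 and Irf7, and the 3 genes with the widest gap between replicates. From the other lists, genes called in a comparison, at most the 3 largest per list and comparison, have values, plus Ifnar1, Ifnar2 and Ifnb1. Alternatives were a replicate block, quantile normalization, a common median, trended and robust moderation, array weights, leaving out the lowest 25% of signal, the mean of a gene's features, only the arrays compared, and leaving out each array. Promoter windows came from RefSeq by gene symbol.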

Additional observations from a re-analysis of the deposited data

How the results depend on the processing

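Of 1470 results of single genes of the list under alternatives, 1352 kept their direction and side of the threshold, 27 lost a call, 21 gained one and 70 changed sign without a call on either side; 0 called values changed sign. In MYD88_L265P against EV, 1 gene was higher and 2 lower with a common median, and 1 was lower with only the arrays of the comparison. Quantile normalization gave 6 lower, and trended moderation, array weights and the filter on low signal gave 5 each. Over all features these fits called 3337, 3554, 3158, 4166, 4645 and 3843 in either direction, in the order named, against 3586 reported. Leaving out 1 array at a time gave 0 to 4 lower genes and a median from -0.45 to 0.0627, the last reversed, without MYD88_L265P replicate 2. In IKK_K171E against EV the median ran from -0.0516, reversed, without IKK_K171E replicate 1, to 0.28. In MYD88_L265P against IKK_K171E, 0 genes were lower with a common median, and leaving out 1 array gave 0 to 1 lower, with a median from -0.59 to -0.08. Leaving out 1 array at a time, calls over all features ran from 191 to 3554 (3586 reported), from 0 to 506 (295) and from 14 to 592 (377) in the same order of comparisons. The cause of these changes was not tested. Most of the 1470 results had no call to lose, since only Stat2, Zbp1, Irgm1 and Herc6 were called in the reported fits. Leaving out an array of the group outside a comparison gave the same fit as only the arrays compared, so these are not separate checks. Adjusted p-values no longer below 0.05 with only the arrays compared were 0.0543 for Stat2, 0.0677 for Zbp1 and 0.0549 for Irgm1, and with a common median 0.0618 for Stat2, 0.0569 for Zbp1 and 0.0605 for Herc6 against IKK_K171E. The order of replicates 1 and 2 in all 3 groups held for 21 genes after quantile normalization and 25 with a common median, checks chosen after seeing the data.

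With the replicate number as a block, 2 genes were higher (Ifih1 and Eif2ak2) and 8 lower in MYD88_L265P against EV, 4 were higher in IKK_K171E against EV (Ifih1, Eif2ak2, Ifit1 and Oasl2), and 5 were lower in MYD88_L265P against IKK_K171E (Ifit1, Ifit2, Ifit3, Oasl2 and Herc6). Of the 21542 features, this fit called 4128, 626 and 498 in either direction, in the same order of comparisons. Deviations of same-numbered arrays correlated over all features at 0.21 between EV and IKK_K171E, 0.10 between EV and MYD88_L265P and 0.14 between the mutants. No label says what a shared number marks, the titles number replicate 1 of EV otherwise than that of the mutant groups, and 2 numbers a group are too few to settle a pairing, so whether the numbers pair the samples is not known.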
